A study of Mus musculus with 9 samples.

Results

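Collagen transcripts were followed in neonatal mouse ovaries cultured with either of 2 polycyclic aromatic hydrocarbons. The members were all array probes whose deposited gene symbol has the form of a collagen chain name (Col, a type number, a, a chain number), which gave 36 genes, measured by 58 of 25697 probes. By textbook class these were 17 fibrillar probes of 11 genes, 13 basement membrane probes of 8 genes and 28 probes of 17 other collagen genes. Swiss mouse ovaries of postnatal day 3 to 4 were kept for 96 hours on culture inserts, and 3 arrays were measured in each of 3 groups. The control group received 0.01% acetone, the solvent. A second group received 7,12-dimethylbenz[a]anthracene (DMBA) at 50 nM, a concentration that the labels say was picked to be overtly toxic. The third received benzo[a]pyrene (BaP) at 1 uM, so the doses of the compounds differ. All 3 groups shared a medium that held 5% fetal calf serum and 50 ug/ml ascorbic acid. Its added factors were bFGF (40 ng/ml), LIF (50 ng/ml) and SCF (25 ng/ml). The labels name neither a mutation nor a transgene. They do not tell whether arrays of a group came from different mice, pools or wells, so each p-value refers to the spread between these arrays, which may be technical. RNA came from whole ovaries, in which fewer cells of a type and less RNA per cell cannot be told apart.

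Collagens are secreted or membrane proteins built of 3 chains wound into a triple helix. Proline and lysine residues are hydroxylated in the endoplasmic reticulum, a step that uses ascorbic acid, and the helix is folded there with dedicated chaperones. Fibrillar collagens, led by types I, III and V, are trimmed outside the cell, assemble into fibrils and are crosslinked by lysyl oxidases. Type IV chains form the network of basement membranes together with laminins, nidogens and perlecan. In the ovary that sheet surrounds the follicles and underlies the surface epithelium, while fibrils fill the stroma.

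Arrays differed in brightness, with median raw signals of 105.8 to 133.7 for acetone, 105.2 to 126 for DMBA and 94.7 to 104.1 for BaP. DMBA replicate 3 lay farthest from its group, with an SD of its deviations from the group mean of 0.151 over all probes, against 0.0788 to 0.121 on the other 8 arrays. Of the collagen probes, 28 (of 21 genes) had a mean signal above the median of all probes, and 30 did not, and 15 genes were measured only by probes of the second kind. Those 15 genes include the cartilage collagens Col2a1, Col11a1, Col11a2 and Col10a1. Of 6 cartilage markers (Acan, Comp, Matn1, Matn3, Sox9, Hapln1) 1, Sox9, was above that median. All 9 oocyte markers, all 5 measured granulosa markers, 7 of 8 stroma markers and 2 of 6 endothelial markers were above it.

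Against acetone, 10 collagen probes of 8 genes changed with BaP and 4 probes of 4 genes with DMBA, in both directions. The limma fit called 6 collagen probes higher and 4 lower after BaP at an adjusted p below 0.05, that is 17.2% of the 58, while 9.8% of all probes were called in that comparison, 4.9% higher and 4.9% lower. After DMBA it called 2 higher and 2 lower, or 6.90% of the 58, against 1.05% of all probes, 0.802% higher and 0.249% lower. The called probes of the fibrillar class, all of them of Col3a1 or Col24a1, rose, and those of the basement membrane class all fell. With BaP the fibrillar class had 4 probes higher and 0 lower, the basement membrane class 0 higher and 3 lower, and the other collagens 2 higher and 1 lower. With DMBA these counts were 1 and 0, 0 and 0, and 1 and 2. Each array comparison uses the same 3 acetone arrays, so the results of the compounds are not independent of each other.

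The 3 classes had different median log2 differences from acetone after BaP. The median was 0.02 for the 17 fibrillar probes, -0.12 for the 13 basement membrane probes and -0.04 for the 28 others, with -0.001 over all probes. All 13 basement membrane probes were below 0, compared with 7 of 17 fibrillar and 17 of 28 other probes. These 13 differences ranged from -0.44 to -0.006. With a single array left out, up to 3 of the 13 were above 0. Among probes above the median signal, the medians were 0.12 for 9 fibrillar, -0.21 for 8 basement membrane and -0.05 for 11 other probes. After DMBA the same probes gave -0.12, -0.19 and -0.21, with 8 of 8 basement membrane, 6 of 9 fibrillar and 8 of 11 other probes below 0. With BaP and 1 probe a gene, medians above the median signal were 0.02 for 7 fibrillar, -0.21 for 6 basement membrane and -0.11 for 8 other genes. Of those 7 fibrillar genes 4 were above 0 and 3 below. When arrays were scaled on their medians alone, without quantile normalization, the median BaP difference of all probes above the median signal moved to -0.34. Below, that value is called the shift. Over all probes, dim ones included, the median was -0.0046 under this scaling. Single probes moved by unequal amounts, Col4a5 from -0.36 to -0.86 and Col28a1 from 0.26 to 0.36, so the shift is only a rough reference. Under that scaling 16 collagen probes were called with BaP, 3 higher and 13 lower, the fibrillar class had 1 higher and 3 lower, and 9 of 13 basement membrane probes were below 0.

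**Figure D1:**
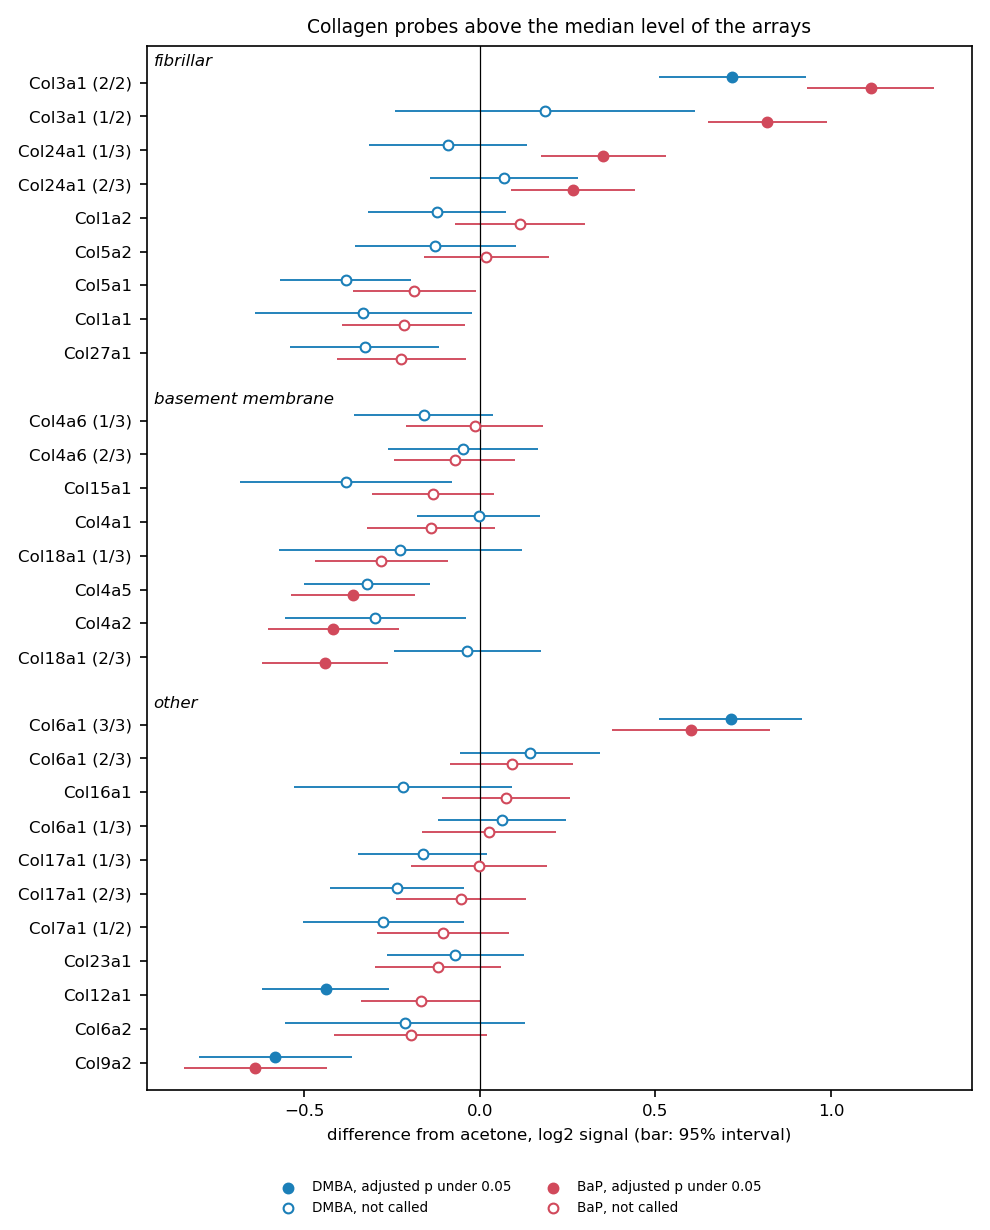
Difference from acetone in log2 signal (x axis, with 95% intervals) for the 28 collagen probes above the median signal, sorted within class by the BaP difference. Blue stands for DMBA and red for BaP, filled points have an adjusted p below 0.05, and a fraction such as 1/3 gives the rank in brightness of a probe among those of its gene. The 4 filled red fibrillar points lie to the right of 0 and the 3 filled red basement membrane points to the left.

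Col3a1, the chain of type III collagen, which forms the fine fibrils of soft organs, had the largest increase of all collagens. Its brighter probe (ILMN_1258629) gave log2 signals of 9.60, 9.66 and 9.59 with acetone, 10.14, 10.05 and 9.22 with DMBA, and 10.41, 10.42 and 10.47 with BaP. Every BaP array was above every acetone and DMBA array, while DMBA replicate 3 was below the acetone arrays and the other 2 DMBA arrays above them. Its dimmer probe (ILMN_2683958) gave 6.57, 6.49 and 6.30 with acetone, 7.30, 7.07 and 7.14 with DMBA, and 7.49, 7.60 and 7.60 with BaP. Here the 3 groups did not overlap at all. With BaP the brighter probe rose 1.76-fold (log2 difference 0.82, SE 0.08, adjusted p = 1.37e-07) and the dimmer one 2.16-fold (1.11, SE 0.09, adjusted p = 2.86e-09). With DMBA the dimmer probe rose 1.65-fold (0.72, SE 0.10, adjusted p = 0.00656). The brighter probe differed by 0.19 (SE 0.19, adjusted p = 0.838) with all 3 DMBA arrays, and by 0.48 (adjusted p = 0.00107) without DMBA replicate 3. The DMBA call of the dimmer probe was lost without acetone replicate 2 (0.74, adjusted p = 0.0784). Under median scaling the BaP difference of the brighter probe was 0.35 (adjusted p = 0.0735), or 0.69 above the shift of -0.34.

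Col24a1, a less abundant fibrillar chain known from developing bone and cornea, rose with BaP by 2 of its 3 probes. The brightest probe (ILMN_1231275) gave 7.16, 7.14 and 7.32 with acetone, 7.30, 7.10 and 6.94 with DMBA, and 7.49, 7.65 and 7.53 with BaP. The BaP arrays stood above all other arrays, and the DMBA and acetone arrays overlapped. The difference from acetone was 0.35 (SE 0.09, adjusted p = 0.00854) for this probe and 0.27 (SE 0.09, adjusted p = 0.0479) for the second. The third probe, below the median signal, differed by 0.04 (adjusted p = 0.884). The first of these calls was lost without acetone replicate 2 (0.32, adjusted p = 0.0731) and without BaP replicate 2 (0.30, adjusted p = 0.0557), and the second under 9 of 12 alternative settings. Under median scaling these 2 probes differed by 0.04 and 0.03, or 0.38 and 0.37 above the shift.

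The chains of type I and type V collagen were not called against acetone after quantile normalization, fitted on the 6 arrays of a comparison. Col1a1, the major chain of type I collagen, gave log2 signals of 11.24, 11.16 and 11.11 with acetone, 10.49, 11.16 and 10.86 with DMBA, and 10.87, 11.04 and 10.95 with BaP. The BaP arrays were all below the acetone arrays, by 0.22 on average (SE 0.08, adjusted p = 0.118). Col1a1 passed with the deposited log2 values (-0.22, adjusted p = 0.0433) and under median scaling (-0.64, adjusted p = 0.00475). The latter value stands beside the shift of -0.34. Its partner chain Col1a2 differed by 0.12 (SE 0.09, adjusted p = 0.542) with BaP and by -0.12 (SE 0.09, adjusted p = 0.736) with DMBA. Under median scaling its BaP value was -0.25, above that shift of -0.34. Col5a1, a chain of type V collagen, which starts fibril assembly, gave 12.51, 12.41 and 12.34 with acetone, 12.11, 12.09 and 11.92 with DMBA, and 12.27, 12.15 and 12.28 with BaP. Acetone arrays were above all others and DMBA arrays below all others. The differences were -0.38 (SE 0.08, adjusted p = 0.0674) for DMBA and -0.19 (SE 0.08, adjusted p = 0.203) for BaP. Col27a1, a fibrillar chain known from cartilage, differed by -0.33 (adjusted p = 0.178) and -0.22 (adjusted p = 0.129). For BaP both passed under median scaling, Col5a1 at -0.55 (adjusted p = 0.00503) and Col27a1 at -0.45 (adjusted p = 0.0186). These 2 values also stand beside the shift of -0.34. For DMBA Col5a1 passed in one fit over all 9 arrays (adjusted p = 0.0297), and without DMBA replicate 3 both passed, Col5a1 at -0.32 (adjusted p = 0.0356) and Col27a1 at -0.39 (adjusted p = 0.0139).

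**Figure D2:**
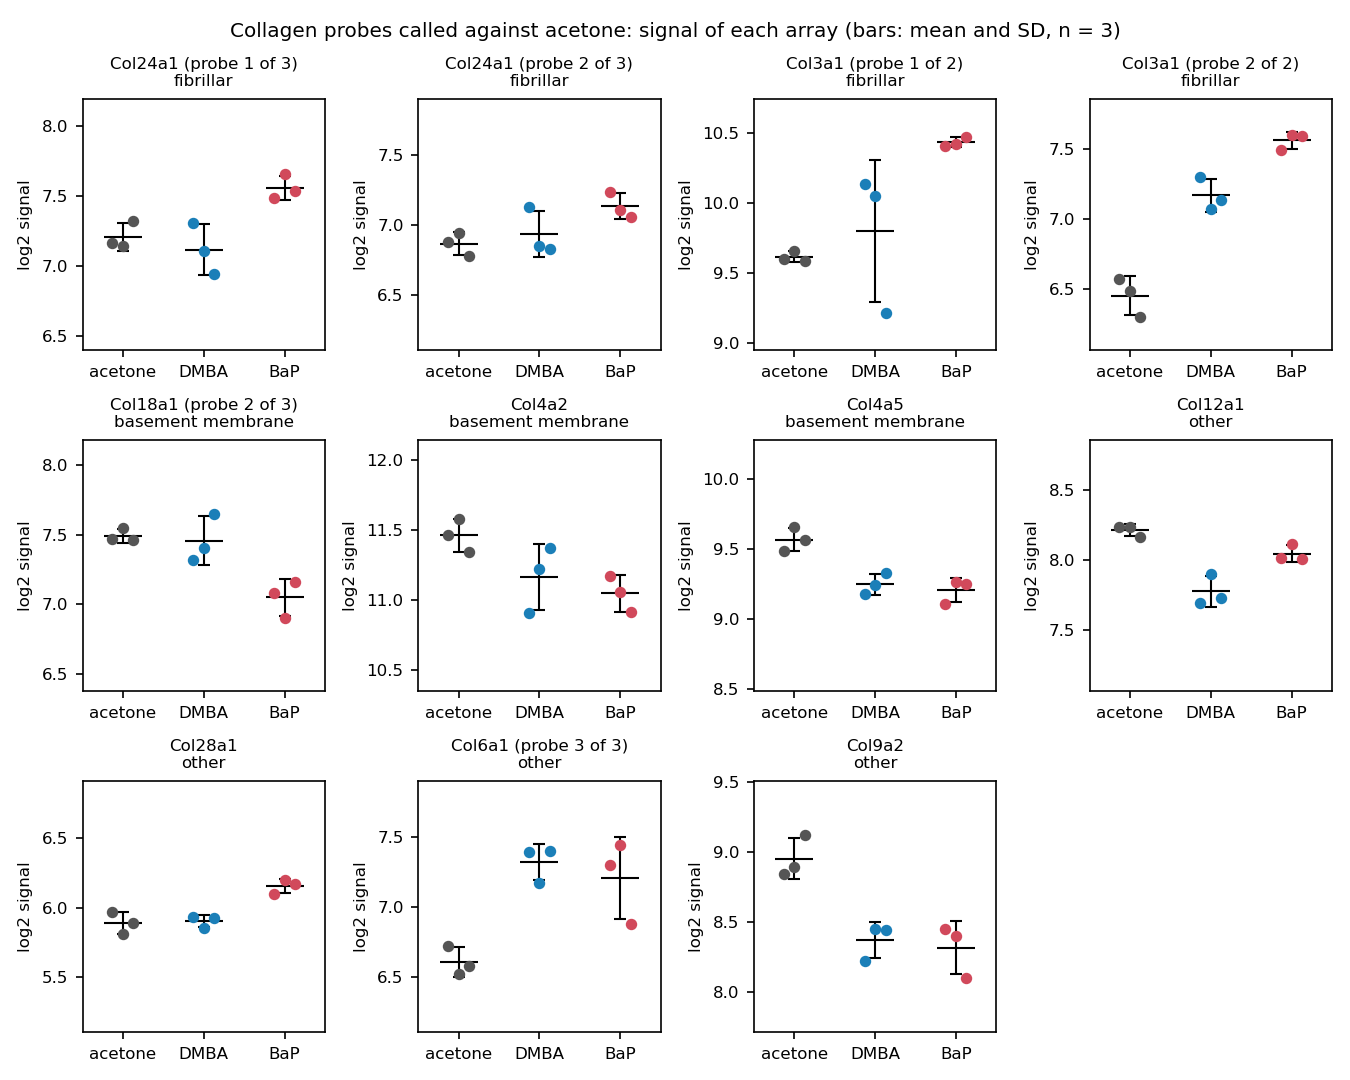
Log2 signal (y axis, each panel spanning the same range) on each of the 3 acetone (grey), 3 DMBA (blue) and 3 BaP (red) arrays for the 11 collagen probes called against acetone in either comparison. Horizontal bars are group means and error bars SD. Both Col3a1 probes are highest in the BaP arrays, and 1 DMBA array of the brighter Col3a1 probe lies at 9.22, below the acetone arrays.

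The DNA just upstream of the called fibrillar collagens, Col3a1 and Col24a1, and of Col9a2 was read from RefSeq promoter windows (GRCm38.p6). Col9a2 was the collagen with the largest decrease. Windows for 29 of the 36 genes were at hand (32 windows, 250 bases before each start). They were searched on both strands for 4 letter strings, none of which contains another. These were GCGTG, the core bound by the aryl hydrocarbon receptor, the TATA box TATAAA, the box CCAAT and the GC box GGGCGG. The stretches are chr1:45311288-45311537 for Col3a1, chr3:145292222-145292471 for Col24a1 and chr4:121039316-121039565 for Col9a2, all on the plus strand and written 5′ to 3′ with matches on either strand in capitals.
Col3a1: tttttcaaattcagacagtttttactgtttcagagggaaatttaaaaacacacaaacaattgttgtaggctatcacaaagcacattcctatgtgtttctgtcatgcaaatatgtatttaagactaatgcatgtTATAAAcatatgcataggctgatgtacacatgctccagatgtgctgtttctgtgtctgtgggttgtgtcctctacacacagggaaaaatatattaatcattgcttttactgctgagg
Col24a1: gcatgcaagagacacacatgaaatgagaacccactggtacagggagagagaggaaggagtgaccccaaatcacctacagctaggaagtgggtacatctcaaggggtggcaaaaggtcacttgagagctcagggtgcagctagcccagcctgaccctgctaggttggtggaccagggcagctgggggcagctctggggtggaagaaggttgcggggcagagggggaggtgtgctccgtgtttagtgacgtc
Col9a2: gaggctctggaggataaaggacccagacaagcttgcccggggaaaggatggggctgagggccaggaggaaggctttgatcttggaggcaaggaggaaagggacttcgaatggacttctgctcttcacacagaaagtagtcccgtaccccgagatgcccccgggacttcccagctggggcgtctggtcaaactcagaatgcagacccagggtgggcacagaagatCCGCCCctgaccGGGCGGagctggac
Col3a1 held 1 TATA box match and an A and T rich window with a GC content of 35.2%. Col24a1 held none of the 4 strings, and Col9a2 held 2 GC boxes at a GC content of 60.4%. GCGTG occurred in 21.9% of the collagen windows and in 28.2% of all 32851 windows of that length. The GC box was in 56.2% and 32.7%, CCAAT in 37.5% and 33.8%, and TATAAA in 15.6% and 12.4%. A match only says that the letters are there.

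Basement membrane collagens gave lower signals with BaP. Col4a2, which with Col4a1 makes the common form of type IV collagen, gave 11.46, 11.58 and 11.34 with acetone, 10.91, 11.22 and 11.37 with DMBA, and 11.17, 11.05 and 10.91 with BaP. All BaP arrays were below all acetone arrays, and the DMBA arrays overlapped both groups. Col4a2 fell by 0.42 with BaP (SE 0.09, adjusted p = 0.00298), or 1.34-fold lower, and differed by -0.30 with DMBA (SE 0.12, adjusted p = 0.371). Col4a5, a chain of the specialised type IV network of kidney and other epithelia, gave 9.49, 9.66 and 9.56 with acetone, 9.18, 9.24 and 9.33 with DMBA, and 9.11, 9.26 and 9.25 with BaP. Both treated groups lay below the acetone arrays and overlapped each other. Col4a5 fell by 0.36 with BaP (SE 0.09, adjusted p = 0.00617) and differed by -0.32 with DMBA (SE 0.08, adjusted p = 0.107). Its BaP call was lost without acetone replicate 2 (-0.32, adjusted p = 0.0650). Without DMBA replicate 3 the DMBA differences of Col4a2 (-0.40, adjusted p = 0.0164) and Col4a5 (-0.36, adjusted p = 0.0166) both passed.

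The partner chain Col4a1 was not called after quantile normalization. It was called with BaP under median scaling (-0.52, adjusted p = 0.0152), beside the shift of -0.34. Its signals were 12.27, 12.32 and 12.25 with acetone, 12.20, 12.25 and 12.38 with DMBA, and 12.05, 12.31 and 12.07 with BaP. BaP replicate 2 lay within the acetone range and the other 2 BaP arrays below it, and the difference was -0.14 (SE 0.09, adjusted p = 0.418). Col4a3 and Col4a4, chains of the kidney and lung network, were at or below the median signal in all their probes. Col4a3 differed by 0.02 with DMBA and -0.01 with BaP. The 2 probes of Col4a4 differed by 0.05 and 0.06 with DMBA and by -0.12 and -0.03 with BaP, with no adjusted p below 0.589. The type IV genes lie on the chromosomes as head-to-head pairs (Col4a1 with Col4a2, Col4a3 with Col4a4, Col4a5 with Col4a6), a layout in which the chains of a pair start close to each other. After quantile normalization the BaP call fell on 1 chain in 2 of these 3 pairs, Col4a2 and Col4a5. Under median scaling, beside that shift, Col4a1 and Col4a2 (-0.84, adjusted p = 0.00274) were both called. The difference between the chains of a pair was not tested.

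Col18a1 and Col15a1 encode the multiplexins, which sit in or next to basement membranes and release endostatin-like fragments. The middle of the 3 Col18a1 probes (ILMN_2937542) gave 7.47, 7.55 and 7.46 with acetone, 7.32, 7.40 and 7.65 with DMBA, and 7.08, 6.90 and 7.16 with BaP. The BaP arrays lay below all others, and the acetone and DMBA arrays overlapped. This probe fell by 0.44 with BaP (SE 0.09, adjusted p = 0.00122), or 1.36-fold lower, and differed by -0.03 with DMBA (adjusted p = 0.954). The brightest Col18a1 probe differed by -0.28 with BaP (SE 0.09, adjusted p = 0.0534), and the dimmest by -0.02 (adjusted p = 0.955). The brightest probe passed under 4 alternatives, at -0.72 (adjusted p = 0.00423) under median scaling and at -0.28 with adjusted p from 0.0412 to 0.0485 under the other 3. Col15a1 gave 10.03, 10.11 and 10.16 with acetone, 9.34, 9.93 and 9.88 with DMBA, and 9.97, 10.05 and 9.88 with BaP. DMBA replicate 1 was the lowest array, and all DMBA arrays were below all acetone arrays. Col15a1 differed by -0.38 with DMBA (SE 0.14, adjusted p = 0.310), which passed without DMBA replicate 3 (-0.46, adjusted p = 0.0161). With BaP it differed by -0.13 (adjusted p = 0.418), which passed under median scaling (-0.62, adjusted p = 0.00617). The median scaling values of Col18a1 and Col15a1 stand beside the shift of -0.34.

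Type VI collagen, which forms beaded filaments near cells, was measured by bright probes of its chains Col6a1 and Col6a2. Its chain Col6a3 was not among the collagen genes measured here. The dimmest of the 3 Col6a1 probes (ILMN_2589422) gave 6.72, 6.52 and 6.58 with acetone, 7.39, 7.17 and 7.40 with DMBA, and 7.30, 7.45 and 6.88 with BaP. Both treated groups lay above all acetone arrays and overlapped each other. It rose 1.64-fold with DMBA (0.71, SE 0.09, adjusted p = 0.00595) and 1.52-fold with BaP (0.60, SE 0.11, adjusted p = 4.88e-04). The brightest probe of the gene gave 13.11, 13.10 and 12.96 with acetone, 13.08, 13.07 and 13.22 with DMBA, and 13.08, 13.26 and 12.91 with BaP, so that the 3 groups overlapped. Its differences were 0.06 with DMBA (adjusted p = 0.881) and 0.03 with BaP (adjusted p = 0.924), and those of the middle probe 0.14 (adjusted p = 0.667) and 0.09 (adjusted p = 0.631). Under median scaling the BaP differences of these probes were -0.31 and -0.28, near the shift of -0.34 and without a call. The probes of Col6a1 thus disagree, and the increase rests on 1 probe. The DMBA call of that probe was lost without acetone replicate 2 (0.67, adjusted p = 0.0784) and without acetone replicate 3 (0.70, adjusted p = 0.0529). Col6a2, the neighbour and partner of Col6a1, gave 11.36, 11.58 and 11.54 with acetone, 10.97, 11.17 and 11.70 with DMBA, and 11.58, 11.26 and 11.05 with BaP. All groups overlapped, with differences of -0.21 for DMBA (adjusted p = 0.736) and -0.20 for BaP (adjusted p = 0.307). Without DMBA replicate 3 the DMBA difference was -0.42 (adjusted p = 0.00734), and without BaP replicate 1 the BaP difference was -0.34 (adjusted p = 0.0270).

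**Figure D3:**
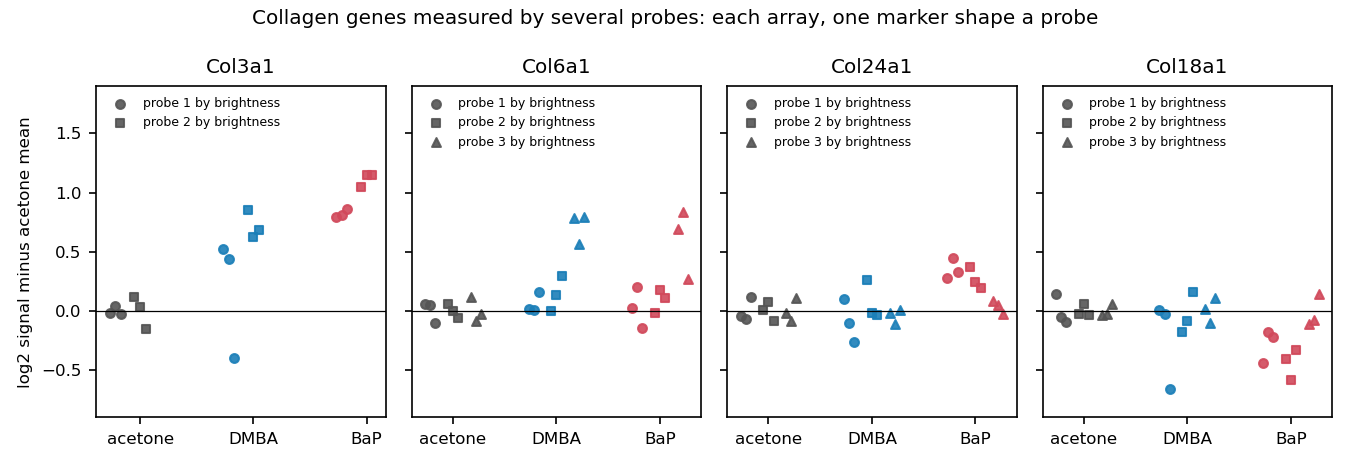
Log2 signal of each array minus the acetone mean of the same probe (y axis) for 4 collagen genes with several probes, by group (grey acetone, blue DMBA, red BaP), 3 arrays a group, one marker shape for each probe. The probes of Col3a1 both lie between 0.79 and 1.15 in the BaP arrays, while for Col6a1 the triangles of the dimmest probe stand above the other 2 probes in the treated arrays.

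Collagens that attach to the surface of fibrils gave 2 decreases. Col9a2, a chain of type IX collagen, best known from cartilage, gave 8.85, 8.90 and 9.12 with acetone, 8.22, 8.45 and 8.45 with DMBA, and 8.45, 8.40 and 8.10 with BaP. Both treated groups were below all acetone arrays and overlapped each other. Col9a2 fell 1.56-fold with BaP (-0.64, SE 0.10, adjusted p = 7.21e-05) and 1.50-fold with DMBA (-0.58, SE 0.10, adjusted p = 0.0216). The other chains of type IX collagen, Col9a1 (3 probes) and Col9a3 (1 probe), were not above the median signal and differed by -0.08 to 0.17 with BaP and by -0.02 to 0.03 with DMBA, with no call. Col12a1, which binds type I fibrils, gave 8.24, 8.24 and 8.17 with acetone, 7.70, 7.90 and 7.73 with DMBA, and 8.01, 8.12 and 8.01 with BaP. The DMBA arrays were the lowest and the BaP arrays stood between them and the acetone arrays. Col12a1 fell by 0.44 with DMBA (SE 0.08, adjusted p = 0.0327) and differed by -0.17 with BaP (SE 0.08, adjusted p = 0.248). The BaP difference passed under median scaling (-0.60, adjusted p = 0.00665), beside the shift of -0.34. The DMBA call of Col9a2 was lost without acetone replicates 1, 2 or 3 or DMBA replicate 2, with adjusted p from 0.0578 to 0.138. That of Col12a1 was lost without any 1 array except DMBA replicate 3, with adjusted p from 0.0596 to 0.209.

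Col16a1, a further fibril-associated chain, gave 11.38, 11.40 and 11.36 with acetone, 11.47, 11.23 and 10.79 with DMBA, and 11.36, 11.37 and 11.63 with BaP. The groups overlapped, and the differences were -0.22 (adjusted p = 0.675) and 0.07 (adjusted p = 0.733). The second was -0.32 under median scaling, near the shift of -0.34. Col28a1, known from nerve, was below the median signal, with 5.97, 5.81 and 5.89 for acetone, 5.93, 5.85 and 5.92 for DMBA and 6.10, 6.19 and 6.17 for BaP. The BaP arrays were above the others, by 0.26 from acetone (SE 0.08, adjusted p = 0.0455), a call lost under 9 of 12 alternative settings. The 32 probes of the 18 genes outside the naming rule, Col1a2, Col9a1 and Col9a3 among them, lay between -0.27 and 0.12 for DMBA and between -0.18 and 0.18 for BaP, with a lowest adjusted p of 0.164 and 0.210. Col26a1 and Col6a6, the collagens outside the rule, differed by -0.24 (adjusted p = 0.389) and -0.01 with DMBA and by -0.11 (adjusted p = 0.574) and 0.10 with BaP.

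Set directly against each other at their unequal doses, BaP and DMBA arrays gave 0 called collagen probes in the limma fit, with 1.12% of all probes called. At an unadjusted p below 0.05 there were 8 collagen probes (10.6% of all probes passed), which were 4 fibrillar, 1 basement membrane and 3 other probes. The 9 fibrillar probes above the median signal were all higher with BaP, by 0.10 to 0.63, with a median of 0.20. The brighter Col3a1 probe was higher by 0.63 (95% interval 0.22 to 1.05, adjusted p = 0.199) and the dimmer one by 0.39 (0.20 to 0.59, adjusted p = 0.0657). Without DMBA replicate 3 the Col3a1 differences were 0.34 (adjusted p = 0.0470) and 0.38 (adjusted p = 0.0331), and the brightest Col24a1 probe also passed at 0.35 (adjusted p = 0.0489). For Col9a2 the difference was -0.06 (-0.30 to 0.18), for Col4a5 -0.04 (-0.23 to 0.15) and for the middle Col18a1 probe -0.41 (-0.64 to -0.17, adjusted p = 0.125). Under median scaling these 3 were called, at -0.45 (adjusted p = 0.0429), -0.43 (adjusted p = 0.0348) and -0.63 (adjusted p = 0.00502), and the Col18a1 probe also in one fit over 9 arrays (adjusted p = 0.0418). Without DMBA replicate 1 the dimmer Col3a1 probe (0.46, adjusted p = 0.0422) and the brightest Col24a1 probe (0.54, adjusted p = 0.0253) passed. Under median scaling 4 of the 9 fibrillar probes were higher with BaP and 5 lower, beside a shift of -0.27.

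The median of a class can also be read array by array, as the median over its probes above the median signal of the distance from the acetone mean. For the fibrillar class it was 0.0002, 0.01 and -0.03 on the acetone arrays, -0.03, -0.02 and -0.27 with DMBA, and 0.01, 0.12 and 0.19 with BaP. BaP replicate 1 and DMBA replicates 1 and 2 lay among or near the acetone arrays. For the basement membrane class it was -0.01, 0.04 and -0.06 on the acetone arrays, -0.21, -0.07 and -0.21 with DMBA, and -0.26, -0.13 and -0.22 with BaP. All 6 treated arrays lay below the 3 acetone arrays.

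Transcripts of proteins that share the basement membrane with type IV collagen fell in several cases. Of 15 measured partner genes, each taken by its brightest probe, 9 fell with BaP and 0 rose, and 14 were below 0, with a median of -0.31, while 4.9% of all probes were called lower. With DMBA 3 fell and 0 rose, and the median was -0.25, with 0.249% of all probes called lower. Of the 15 partner probes 12 were above the median signal, while these shares also cover the dim probes of the array. Lamc1, the gamma chain of most laminins, gave the largest BaP decrease at -0.73 (SE 0.09, adjusted p = 7.22e-06). Hspg2, the heparan sulfate proteoglycan perlecan, fell by 0.60 with BaP (adjusted p = 5.11e-05) and by 0.62 with DMBA (adjusted p = 0.00953). Nid1, which links laminin to type IV collagen, fell by 0.43 with BaP (adjusted p = 8.82e-04) and by 0.60 with DMBA (adjusted p = 0.00672), and Lamc1 fell by 0.43 with DMBA (adjusted p = 0.0466). The laminin chains Lamb2 (-0.48, adjusted p = 0.00127) and Lama2 (-0.46, adjusted p = 5.14e-04) fell with BaP, as did Agrn, Lama1, Lamb3 and Lama4. The DMBA call of Lamc1 was lost under 10 of 13 alternative settings, that of Hspg2 under 4 and that of Nid1 under 3. With BaP the call of Lama4 was lost under 11 of 12, and those of Lamb3, Lama1 and Agrn under 7, 5 and 4 of 13. The BaP calls of Lamc1, Hspg2, Nid1 and Lama2 held in all 13. The summed signal of the 15 probes was 9363 to 10740 on the acetone arrays, 7406 to 7839 with DMBA and 7170 to 7866 with BaP, so that treated and control arrays did not overlap. The number called ranged from 5 (without acetone replicate 1) to 8 when single arrays were left out of the BaP comparison. For DMBA it was 0 without acetone replicate 2 or DMBA replicate 2, 1 without acetone replicate 1 and 6 without DMBA replicate 3.

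**Figure D4:**
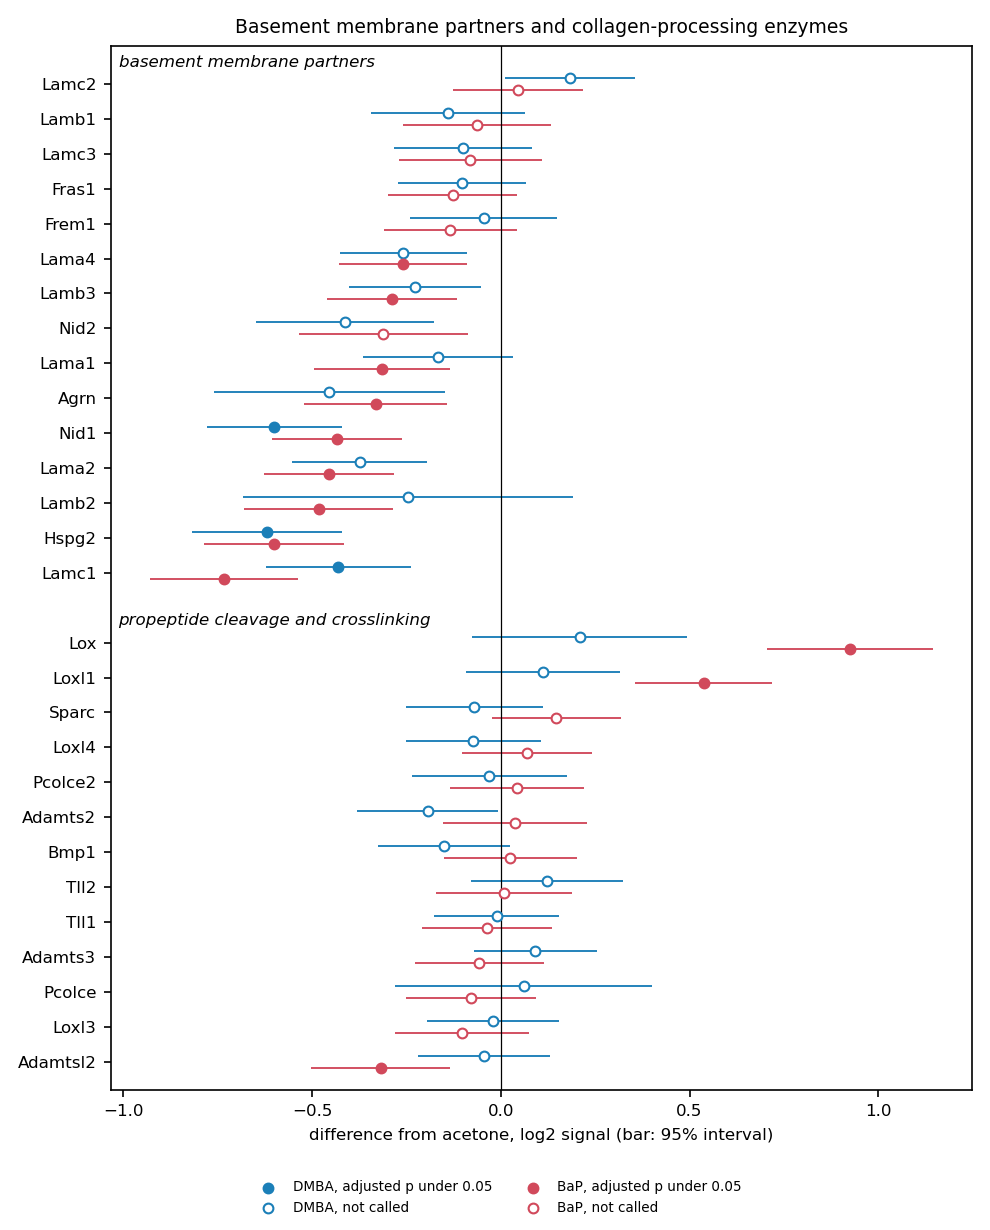
Difference from acetone in log2 signal (x axis, with 95% intervals) for 15 basement membrane partner genes and 13 genes of propeptide cleavage and crosslinking, each by its brightest probe, with DMBA in blue and BaP in red and filled points at an adjusted p below 0.05. All filled basement membrane points lie to the left of 0, and Lox and Loxl1 stand to the right with BaP.

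Among genes of collagen crosslinking, 2 lysyl oxidases rose with BaP. Lox, the lysyl oxidase that crosslinks fibrils, rose by 0.93 (SE 0.11, adjusted p = 1.20e-06) and its relative Loxl1, best known for elastin, by 0.54 (SE 0.09, adjusted p = 1.55e-04). With DMBA these genes differed by 0.21 (adjusted p = 0.659) and 0.11 (adjusted p = 0.778), and BaP exceeded DMBA by 0.72 (adjusted p = 0.00356) and 0.43 (adjusted p = 0.0316). Under median scaling neither BaP call held (0.45, adjusted p = 0.0723, and 0.16, adjusted p = 0.394), or 0.79 and 0.50 above the shift. Among the 13 measured genes of cleavage and crosslinking, Adamtsl2, a secreted protein related to the ADAMTS proteases, fell with BaP (-0.32, adjusted p = 0.0213), and 0 were called with DMBA. Of 20 genes of chain modification and folding, 2 fell and 0 rose with BaP, a share near the 9.8% of all probes called. These were the prolyl hydroxylase subunit P4ha1 (-0.40, adjusted p = 0.00333) and the lysyl hydroxylase Plod1 (-0.35, adjusted p = 0.0118). With DMBA 0 of the 20 were called.

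Proteins that bind collagen on the outside of the cell moved both ways with BaP. Of 14 collagen-binding matrix genes 3 rose and 2 fell, with 9.8% of all probes called. Thbs1, an adhesive glycoprotein, rose by 0.71 (adjusted p = 2.64e-05), with a DMBA difference of 0.47 (adjusted p = 0.0950). The small proteoglycan Lum (0.33, adjusted p = 0.0154) and Thbs2 (0.31, adjusted p = 0.0313) rose. Under median scaling they were at -0.05 and -0.17, above the shift of -0.34. Mfap4 (-0.33, adjusted p = 0.0201) and Prelp (-0.32, adjusted p = 0.0230) fell. Of 10 measured receptor and uptake genes, Antxr1 (-0.62, adjusted p = 2.77e-05) and the receptor tyrosine kinase Ddr1 (-0.44, adjusted p = 0.00209) fell, while a second probe of each differed by -0.18 and -0.03 without a call. Cd44 rose by 0.37 (adjusted p = 0.0142), and 5 dimmer Cd44 probes differed by -0.12 to 0.05. Under median scaling the called Cd44 probe was at -0.08, above the same shift of -0.34. With DMBA 0 genes of these groups were called.

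Of 12 proteases that can cleave collagen, 3 rose and 2 fell with BaP (9.8% of all probes called), and 1 rose and 1 fell with DMBA (1.05% of all probes). Ctsk, the collagenolytic cysteine protease cathepsin K, rose by 1.04 with BaP (SE 0.08, adjusted p = 4.24e-09) and by 0.40 with DMBA (adjusted p = 0.0453), and BaP exceeded DMBA by 0.64 (adjusted p = 0.00344). Mmp9, a gelatinase that also cleaves type IV collagen, fell by 0.77 with BaP (adjusted p = 1.38e-06) and by 0.74 with DMBA (adjusted p = 0.00656). Mmp3, or stromelysin, rose by 0.62 with BaP (adjusted p = 3.92e-05), and its other 2 probes by 0.43 and 0.54. The membrane-bound Mmp16 rose by 0.32 (adjusted p = 0.0322) and Mmp15 fell by 0.40 (adjusted p = 0.00339). A second Mmp16 probe differed by -0.07. The first was at 0.04 under median scaling, beside the shift of -0.34. The DMBA call of Ctsk was lost under 10 of 13 alternative settings.

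The TGF-beta pathway, a main inducer of fibrillar collagen genes, gave mixed calls. Of 16 measured genes 2 rose and 3 fell with BaP, beside 9.8% of all probes, and 0 were called with DMBA. The latent TGF-beta binding proteins Ltbp1 (-0.37, adjusted p = 0.00727) and Ltbp3 (-0.35, adjusted p = 0.0147) and the ligand Tgfb3 (-0.30, adjusted p = 0.0297) fell. The signal transducer Smad2 (0.31, adjusted p = 0.0165) and the receptor Tgfbr1 (0.27, adjusted p = 0.0368) rose. Under median scaling they were at -0.17 and -0.12, above the shift of -0.34. Of 3 further Tgfbr1 probes 1 was called (0.43, adjusted p = 0.00547), and 5 further Ltbp1 probes lay between -0.19 and 0.17 without a call. A second Ltbp3 probe differed by -0.03 (adjusted p = 0.918).

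Markers of several ovarian cell types were also called. Of all probes, dim ones included, 4.9% were called higher and 4.9% lower with BaP. With DMBA 0.802% were called higher and 0.249% lower. The 8 markers of stroma, the tissue known to make fibrillar collagen, had a median BaP difference of 0.01 with 1 higher (Lum) and 1 lower (Mfap4), and their summed signal was 20109 to 21307 with acetone, 20460 to 22819 with DMBA and 19926 to 21002 with BaP. Of 8 macrophage markers 6 fell with BaP, and their summed signal was 1708 to 1898 with acetone, 1923 to 2336 with DMBA and 1114 to 1205 with BaP. Of 7 reproductive tract epithelium markers 5 fell with BaP, led by Ltf at -4.13 (adjusted p = 3.93e-21), and the sums were 5684 to 5901, 6266 to 7238 and 1440 to 1494. The called genes were Ltf, Wfdc2, Sprr2f, Sftpd and Lcn2. The measured genes without a call came from Pax8, Ovgp1 and Epcam, and the highest of them differed by 0.11. A second Ltf probe, below the median signal, differed by -0.24 (adjusted p = 0.0615). Of 7 surface epithelium markers 3 fell with BaP (Krt19, Krt18, Lhx9), with sums of 3723 to 3904, 3898 to 4970 and 3207 to 3391. Oocyte, granulosa and smooth muscle markers had calls in both directions with BaP (1 higher and 3 lower of 9, 1 and 1 of 5, 1 and 1 of 5). Emcn alone rose among 6 endothelial markers. With DMBA the 2 epithelial lists and the macrophage list had 0 genes lower and 1 higher each. The oocyte list had 2 lower with DMBA (Oosp1 -0.78, adjusted p = 0.0135, and Bmp15 -0.55, adjusted p = 0.0363) and 0 higher, and the other 5 lists had 0 called. The DMBA calls of Oosp1 and Bmp15 were lost under 5 and 7 of 13 alternative settings. Those of the genes called higher, Upk3b, Sftpd and C1qb, were lost under 9, 9 and 7. The part of these cell types in the collagen and basement membrane differences was not tested.

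In the authors' deposited table for BaP, which lists 205 probes, both Col3a1 probes and Col9a2 appear, with ratios of acetone over BaP of 0.567, 0.563 and 1.51. The authors' deposited table for DMBA lists 110 probes and 0 collagens. These lists are limited to a fold of 1.5, while the limma calls had no fold limit. For DMBA the dimmer Col3a1 probe had a ratio of 0.698 (authors' unadjusted p = 3.68e-05) and Col9a2 1.46 (5.94e-04), both short of that fold. In the authors' deposited table of all probes, 13 collagen probes for DMBA and 16 for BaP have an unadjusted p below 0.05. The share of all probes below that p was not counted, so these counts cannot be weighed against it.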

How the data were processed

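RNA of cultured ovaries was measured on 9 Illumina mouse Ref-8 beadchip arrays. Per the file headers, the authors deposited non-normalized intensity values on a linear scale, log2 expression values, and reports whose rows hold, for each compound, a linear ratio (acetone divided by treated) and a p-value without adjustment. The submitters' processing notes name lumi; the report titles name ANOVA. Report rows, which name genes, were joined to probes by both log2 ratios (tolerance 0.0001), and all 58 collagen probes were joined. Of these, 53 were named by accession and 5 by symbol.

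Intensities were corrected with normexp (offset 50), quantile normalized and log2 transformed, and no probe was filtered out. Each comparison was fitted on its 6 arrays with limma 3.58.1 in R 4.3.3 (lmFit, eBayes, two-sided) and Benjamini-Hochberg adjustment over all 25697 probes at 0.05, after checks on simulated data. Python 3.11.15 with numpy 2.4.6, pandas 2.3.3 and matplotlib 3.10.9 did the joins and plots. Alternatives were another scaling, the deposited log2 values, no normexp, a filter on dim probes, one probe a gene, one fit over 9 arrays, a replicate block and leaving out each array, 13 per comparison. Precision is limited by the number of arrays. Members, lists and tests were chosen with earlier results of these data known. Named were collagen genes with a called probe, the 12 brightest and the extremes of each class, and up to 4 called genes per list and comparison. Col1a2, the other type IX chains, the cartilage collagens and list genes beyond 4 were chosen after their values were seen.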

Additional observations from a re-analysis of the deposited data

How the results depend on the processing

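Of 14 collagen calls against acetone, 5 held in each alternative that tested their probe, all with BaP. Col9a2 and Col4a2 were tested in 13 alternatives. The dimmer Col3a1, the dimmest Col6a1 and the middle Col18a1 probe were tested in 12, since the setting with one probe a gene leaves them out. Of 972 values of named probes under alternatives, 896 stayed on their side of the threshold, 42 lost the call and 34 gained one. Of the 896, 836 kept their sign and 60 that were not called changed it, 17 of these under median scaling. No called value changed sign. The number of called probes for DMBA (4) was 0 under median scaling, 2 with the deposited log2 values and 2 with one probe a gene, and 0 (without acetone replicate 2) to 13 (without DMBA replicate 3) with an array left out. For BaP (10) it was 16 under median scaling and 6 (without acetone replicate 2) to 10 with an array left out. For BaP against DMBA (0) it was 5 under median scaling, 3 in one fit over 9 arrays and 0 to 3 with an array left out. Median scaling moved the median of probes above the median signal to -0.34 for BaP, -0.07 for DMBA and -0.27 between compounds.

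Medians over all collagen, fibrillar, basement membrane and other probes follow in that order. With probes above the median signal they were -0.16, -0.12, -0.19 and -0.21 for DMBA, -0.088, 0.12, -0.21 and -0.053 for BaP, and 0.13, 0.20, -0.048 and 0.016 between compounds. Under median scaling they were -0.065, -0.044, -0.10 and -0.037 for DMBA, -0.0074, 0.026, -0.25 and 0.0037 for BaP, and 0.020, 0.059, -0.12 and 0.056 between compounds. With one probe a gene, the medians that moved were -0.080, -0.091, -0.19 and -0.058 for DMBA, -0.070 over all for BaP, and 0.012 over all and 0.0082 for other probes between compounds. The deposited log2 values gave -0.071 (basement membrane) and -0.021 (other) for BaP and 0.076 (fibrillar) between compounds. Without normexp the values were -0.024 (other, BaP) and 0.082 (fibrillar, between compounds). The 5 chains of types I, III and V gave -0.12 for DMBA, 0.067 for BaP and 0.22 between compounds. With an array left out the 4 medians ranged for DMBA from -0.060 to -0.020, -0.074 to -0.023, -0.097 to -0.036 and -0.059 to -0.0050. For BaP they ranged from -0.056 to -0.026, -0.011 to 0.045, -0.17 to -0.050 and -0.067 to -0.017. Between compounds they ranged from -0.00046 to 0.033, 0.071 to 0.15, -0.062 to -0.0020 and -0.016 to 0.033. The cause of these shifts was not tested.

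Same-numbered arrays correlated at -0.180 to 0.130 in their deviations from group means, and differently numbered arrays at -0.130 to 0.180. These values show no pairing by number, but with few arrays they cannot exclude it, and the labels do not tell. The replicate block gave 4 called probes for DMBA, 8 for BaP and 0 between compounds. The count of basement membrane partners called under each setting was added after seeing the data. It was 9 for BaP and fell to 4 in one fit over 9 arrays and 6 with the replicate block, and for DMBA (3) it was 0 under median scaling. A chip block was not run, since the headers used here name no chip. Probes at or below the median signal lie near background, which limits what 30 of the 58 probes can show.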
